A study of Mus musculus with 8 samples.

Results

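The regions described here carry H3K4me3 (histone H3 trimethylated at lysine 4), in 4 stretches of the mouse genome that hold genes of the meiotic prophase, Sycp1, Sycp3, Spo11 and Dmc1. Every listed region that overlapped a window in mm9 by at least 1 bp was taken, whatever its values. The genes themselves were chosen with earlier results of these data known. The windows were chromosome 3 from 102.6 to 102.76 Mb (Sycp1), chromosome 10 from 87.91 to 87.95 Mb (Sycp3), chromosome 2 from 172.79 to 172.83 Mb (Spo11) and chromosome 15 from 79.37 to 79.45 Mb (Dmc1). They held 6 of the 16519 regions obtained by merging the lists of the 4 H3K4me3 libraries. The chromatin came from whole testes of adult C57BL/6 mice, which were H3f3b WT/WT (libraries WT 66 and WT 74) or H3f3b null (libraries KO 67 and KO 73). H3f3b encodes H3.3, a histone variant that cells can deposit without replicating their DNA. The series also has 4 input libraries, which were not analysed here. The labels do not say how the null allele was made, or that each library is a separate animal, so a p-value reflects the variation among these 4 libraries alone, part or all of which may be technical.

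In the meiotic prophase, homologous chromosomes pair, break and recombine. SYCP3 builds the axes of the chromosomes and SYCP1 forms the transverse filaments that join paired axes in the synaptonemal complex. SPO11 makes the DNA double-strand breaks that start recombination, and DMC1 is the recombinase that carries the broken ends into the homologous chromosome. Spermatocytes are the cells of the testis in which these genes are known for their activity. H3K4me3 marks the promoters of active genes, and CpG-rich promoters carry it most often.

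The promoters of the genes are shown because H3K4me3 is a mark of promoters and because they show which letters such a region would lie over. RefSeq's table for GRCm38.p6 matched 3 of the 4 genes, and Spo11 had no entry. Each sequence runs from 250 bases before the gene's start to 50 bases after it. Capitals mark matches, on either strand, to 6 motifs. AACNGNC is a longer form of the A-MYB core, which is AACNG. The motif GCGGGAA is known from E2F sites, as are the letters TCCCGC. The meiotic regulator STRA8 is known for the motif CNCCTCAG. Sites of CREB and CREM hold TGACGT. The factor NF-Y binds the letters CCAAT. Every match to GCGGGAA contains one to TCCCGC on the other strand, and every AACNGNC contains an AACNG.
Sycp1 promoter (GRCm38.p6, chr3:102936051-102936350, minus strand): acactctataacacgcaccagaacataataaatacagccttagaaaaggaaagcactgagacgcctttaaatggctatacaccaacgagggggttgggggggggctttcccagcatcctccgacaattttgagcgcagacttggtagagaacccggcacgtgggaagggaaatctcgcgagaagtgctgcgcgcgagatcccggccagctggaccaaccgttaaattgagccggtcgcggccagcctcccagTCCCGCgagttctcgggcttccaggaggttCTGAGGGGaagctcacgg
Sycp3 promoter (GRCm38.p6, chr10:88459337-88459636, plus strand): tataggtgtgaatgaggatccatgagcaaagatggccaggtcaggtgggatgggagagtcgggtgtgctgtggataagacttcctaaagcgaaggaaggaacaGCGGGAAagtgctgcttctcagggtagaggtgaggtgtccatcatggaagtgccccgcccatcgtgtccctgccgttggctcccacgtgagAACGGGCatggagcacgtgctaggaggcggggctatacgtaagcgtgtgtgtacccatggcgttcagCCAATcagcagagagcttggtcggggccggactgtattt
Dmc1 promoter (GRCm38.p6, chr15:79605060-79605359, minus strand): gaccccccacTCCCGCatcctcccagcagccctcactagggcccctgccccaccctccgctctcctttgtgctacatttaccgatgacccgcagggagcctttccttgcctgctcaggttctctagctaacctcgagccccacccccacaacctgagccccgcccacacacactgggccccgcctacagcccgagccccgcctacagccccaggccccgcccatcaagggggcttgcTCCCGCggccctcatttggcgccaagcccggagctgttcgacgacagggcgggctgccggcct
The Sycp1 promoter held TCCCGC at bases 3 to 8, counted from the start of the gene, and CNCCTCAG on the other strand at 33 to 40. The Sycp3 promoter held GCGGGAA from -147 to -141, AACNGNC from -56 to -50 and CCAAT from 12 to 16. The Dmc1 promoter held TCCCGC from -240 to -235 and from -13 to -8. Of the motifs in capitals, TCCCGC was the one found in all 3, and 19.98% of the 32851 promoters in the table held it. The shares were 4.6% for GCGGGAA, 32.8% for AACNGNC, 7.94% for CNCCTCAG, 7.51% for TGACGT and 37.4% for CCAAT. The short core AACNG, not put in capitals, was also found in all 3, and in 80.3% of all promoters. CpG dinucleotides numbered 21 in the Sycp1 promoter, 15 in that of Sycp3 and 18 in that of Dmc1, against a median of 7. These counts stood at percentiles 76.1, 66.2 and 71.1 of all promoters in the table, so many other promoters held as many or more. A match describes letters and is not a bound site.

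Which gene a region belongs to could not be read from the lists, since no gene positions in mm9 were used here. The coordinates of the promoters above are in another build and cannot be set against those of the regions. The Sycp1 and Sycp3 windows held 1 region each. The Spo11 and Dmc1 windows held 2 each, and these are called lower and upper by their order along the chromosome. In RefSeq's GRCm38 order, Chpt1 is the next protein-coding gene above Sycp3 and overlaps it, and Rae1 is the next above Spo11. Ddx17 is the next below Dmc1, and the start of Dmc1, which lies on the minus strand, is at the end away from Ddx17. Of each pair, the region with the larger WT length was the upper one in the Spo11 window and the lower one in the Dmc1 window. These larger regions may belong to Rae1 and Ddx17 rather than to the meiotic genes, which was not tested. Regions are therefore named by their windows, which does not say whose promoter they cover. The markers of testis cell types and the other genes of meiotic prophase were not measured, for the same lack of positions.

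The WT lists had 14078 regions (WT 66) and 14551 (WT 74), and the KO lists 10502 (KO 67) and 12497 (KO 73). No region was narrower than 501 bp in any list. The number of reads behind each list is unknown. Deposited scores below 100 were whole multiples of a step, which was 0.874 for WT 66, 1.39 for WT 74, 0.325 for KO 67 and 1.45 for KO 73, to within 0.0494, 0.0495, 0.0502 and 0.041. Higher scores were not checked. If a step were 1 read and the lists were scaled alike, which is not stated, KO 67 would be 4.46 times as deep as KO 73, WT 66 1.66 times and WT 74 1.04 times.

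All 6 regions were present in all 4 libraries, with 1 region per library at each place, so the mark was called at every one of them without H3f3b. Over the whole lists, 77.6% of the regions of both WT lists were found in both KO lists, 22.4% were missing from at least 1 and 11.8% from both. The mean log2 covered length was smaller in KO at all 6, as at 80.1% of the regions found in all lists, with KO means from 67% to 85.7% of the WT means (Sycp1 turned after either scaling of widths, given below). None of the 6 differences passed limma's moderated test after Benjamini-Hochberg adjustment over the 9742 regions found in all 4 lists. By the same test 2 of the 6, the upper Spo11 and lower Dmc1 regions, had an unadjusted p under 0.05. Over all 9742 regions 3.61% passed, and 19.5% had an unadjusted p under 0.05. In 3 of the 6 both KO lengths were under both WT lengths, against 47.4% of all regions, and the groups overlapped in the other 3. This share was near that background. The median log2 change, KO minus WT, was -0.41 over the 6 regions (from -0.58 to -0.22) and -0.18 over all 9742. Relative to that median of all regions, the change was -0.04 at Sycp1, -0.19 at Sycp3, -0.26 and -0.30 at the lower and upper Spo11 regions, and -0.40 and -0.20 at the lower and upper Dmc1 regions. That median covers regions of any width. Medians at like WT width, given below, ran from -0.65 for the lower Dmc1 region to -0.08 for the upper Dmc1 region. In whole testes, fewer cells of a type and less of the mark per cell cannot be told apart.

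The Sycp1 region lay on chromosome 3 from 102738935 to 102741297, over all libraries. Library WT 66 covered 2301 bp of it and WT 74 1826 bp, while KO 67 covered 1917 bp and KO 73 1620 bp. KO 67 exceeded WT 74, so the genotypes overlapped. The WT mean was 2063.5 ± 336 bp and the KO mean 1768.5 ± 210 bp (SD, n = 2 for each genotype), and the exact permutation p was 0.667. The log2 change was -0.22 ± 0.17 (SE; 95% interval from -0.64 to 0.20; limma adjusted p = 0.525), and after subtraction of library medians or quantile normalization it was 0.016 or 0.045. It rested on single libraries, being -0.05 when WT 66 was left out and -0.38 when WT 74 was, and -0.34 or -0.10 when KO 67 or KO 73 was. Its change relative to all regions was close to 0, so the region in the Sycp1 window differed between the genotypes about as much as the middle region of the lists. Most of the width that separated WT 66 from the other libraries was at the upper end, where WT 66 reached 469 bp farther than WT 74, 446 bp farther than KO 67 and 511 bp farther than KO 73.

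The Sycp3 region, on chromosome 10 from 87920612 to 87923726, differed most between the WT libraries. Its length was 3115 bp for WT 66 and 1814 bp for WT 74, against 1946 bp for KO 67 and 1749 bp for KO 73. WT 74 lay between the KO libraries, and WT 66 alone was wide. Its start lay 1293 bp below that of WT 74, while the upper ends of WT 66, WT 74 and KO 73 fell within 17 bp of each other. The WT mean was 2464.5 ± 920 bp and the KO mean 1847.5 ± 139 bp (SD, n = 2; exact permutation p = 0.667). The log2 change of -0.37 ± 0.26 (SE; interval from -1.03 to 0.30; limma adjusted p = 0.502) was 0.024 without WT 66 and -0.76 without WT 74. WT 74 and KO 73 shared 0.964 of their joint length here, the highest such share (Jaccard index) of any library pair at any of the 6 regions, and the WT libraries shared 0.582.

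The lower region of the Spo11 window, on chromosome 2 from 172804960 to 172806178, was one of the short ones. Library WT 66 covered 1219 bp of it and WT 74 1027 bp, while KO 67 covered 895 bp and KO 73 761 bp. Neither KO length reached the shorter WT length. The WT and KO means were 1123 ± 136 bp and 828 ± 94.8 bp (SD, n = 2), 26.3% less in KO. The exact permutation p of 0.333 is the smallest that 2 libraries against 2 can give, and the log2 change of -0.44 ± 0.21 (SE; interval from -0.95 to 0.08) did not pass limma's test (adjusted p = 0.318). Between the means of the genotypes, the region was shorter by 145.5 bp at the lower and 149.5 bp at the upper end. WT 74, KO 67 and KO 73 began 177, 180 and 288 bp above the start of WT 66. The starts of WT 74 and KO 67 were thus nearly the same.

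The upper region of the Spo11 window lay 18456 bp farther along, from 172824635 to 172826962. Its length was 2204 bp for WT 66 and 2056 bp for WT 74, against 1598 bp for KO 67 and 1462 bp for KO 73. The lowest WT value was well above the highest KO value, and libraries of a genotype differed by at most 148 bp. The WT and KO means were 2130 ± 105 bp and 1530 ± 96.2 bp (SD, n = 2; exact permutation p = 0.333), 28.2% less in KO. The log2 change was -0.48 ± 0.12 (SE; interval from -0.79 to -0.17), with an unadjusted p of 0.01 and an adjusted p of 0.114 by limma. After the scalings by medians and by quantiles it was -0.24 and -0.23, and that of the lower Spo11 region -0.21 and -0.26. On average the KO regions began 394 bp farther in at the lower end and stopped 206 bp short at the upper end.

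The lower region of the Dmc1 window, on chromosome 15 from 79375095 to 79379492, was the widest of the 6. Library WT 66 covered 4231 bp of it and WT 74 4313 bp, while KO 67 covered 2979 bp and KO 73 2749 bp. The WT libraries differed by 82 bp and the KO libraries by 230 bp, while the means of the genotypes were 1408 bp apart. The WT and KO means were 4272 ± 58 bp and 2864 ± 163 bp (SD, n = 2; exact permutation p = 0.333), 33% less in KO. The log2 change was -0.58 ± 0.11 (SE; interval from -0.85 to -0.30; limma adjusted p = 0.0594). The adjusted p was 0.0454 when regions in the lowest 25% of scores were dropped and 0.0484 in lists of the shortest length, with the same log2 change, and from 0.058 to 0.714 in the other alternatives. The log2 change itself was -0.34 after subtraction of library medians and -0.11 after quantile normalization. Both ends lay inside the WT extent in KO, by 565 bp at the lower and 843 bp at the upper end between the means. Its Jaccard index was 0.943 within WT and 0.912 within KO, and from 0.637 to 0.704 between the genotypes.

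The upper region of the Dmc1 window, from 79434677 to 79435983, was weak and varied between libraries of a genotype. It lay 55184 bp above the lower region. Its length was 810 bp for WT 66 and 1279 bp for WT 74, against 888 bp for KO 67 and 688 bp for KO 73, so that WT 66 fell between the KO libraries. The WT and KO means were 1044.5 ± 332 bp and 788 ± 141 bp (SD, n = 2; exact permutation p = 0.667). The log2 change of -0.38 ± 0.29 (SE; interval from -1.12 to 0.35; limma adjusted p = 0.528) was -0.05 without WT 74, -0.71 without WT 66 and -0.20 when KO 73 was left out, and -0.15 and -0.20 after the scalings by medians and by quantiles. Its scores stood for 41 steps (WT 66), 46 (WT 74), 130 (KO 67) and 23 (KO 73), and the smallest scores of these lists for 23, 15, 62 and 14. The region was thus closer to the limit of calling than the other 5. No more than 492 bp, 37.6% of its joint extent, was covered in all 4 libraries.

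**Figure D1:**
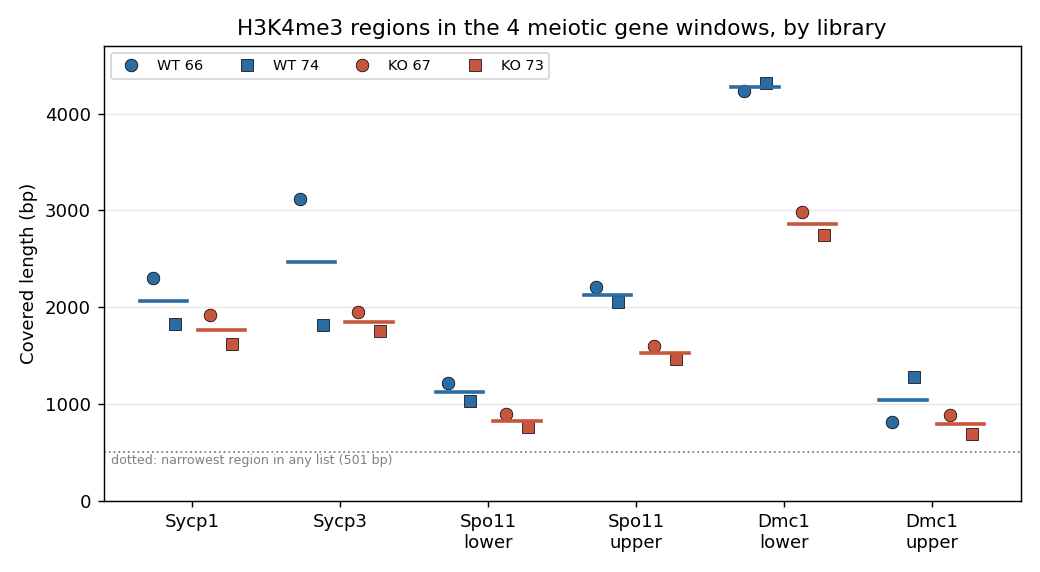
Covered length in bp of each of the 6 regions in each library (points; WT blue, KO red; the bars are means of 2 libraries). WT and KO points are apart in both Spo11 regions and in the lower Dmc1 region, and overlap at Sycp1, Sycp3 and the upper Dmc1 region.

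The places of the ends showed how the regions were shorter. The KO starts lay inside both WT starts in 4 of the 6 regions, the exceptions being Sycp1 and Sycp3, against 37.3% of all regions of the 4 lists. The KO ends lay inside both WT ends in 4 of the 6, the exceptions being Sycp1 and the upper Dmc1 region, against 41.7% of all. Some of these separations were narrow. At Sycp3 the upper end of KO 73 lay 17 bp inside the WT extent, and that of WT 74 8 bp. At the lower Spo11 region the start of KO 67 lay 180 bp inside that extent, and that of WT 74 177 bp. At the upper Spo11 region the upper end of KO 73 lay 296 bp inside it, and that of WT 74 272 bp. These background shares cover regions of any width, and none was taken for regions of like width. Of the 12 KO regions, 1 reached beyond the WT extent, KO 67 at Sycp1 by 62 bp at its lower end. Over all shared regions, 71.4% of KO regions stayed inside the WT extent.

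**Figure D2:**
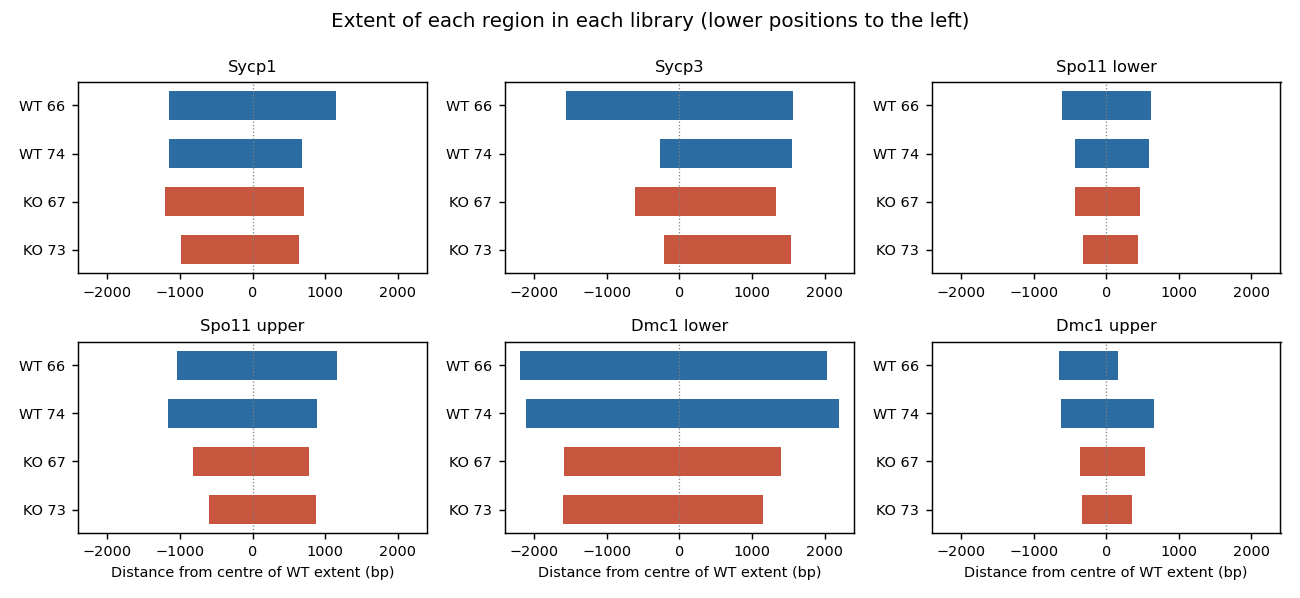
Extent of each region in each library, as distance in bp from the centre of the extent covered by the WT libraries (WT blue, KO red). The KO bars are shorter from both sides at the lower Dmc1 region and both Spo11 regions, and at Sycp3 the bar of WT 66 alone runs far to the left.

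The deposited score ranks regions within a list. As percentiles of the whole list (100 is the highest score), the lower Dmc1 region stood at 98.9 (WT 66), 98.8 (WT 74), 97.3 (KO 67) and 97.6 (KO 73), an order of libraries kept below, which was place 150, 168, 285 and 299 from the top. Sycp3 stood at 88.3 and 81.2 in WT and 79.7 and 80.0 in KO, and the upper Spo11 region at 87.9 and 87.1 in WT and 76.7 and 80.0 in KO. These 3 regions were among the stronger ones of every list. Sycp1 stood at 76.7 and 77.8 in WT and 70.6 and 80.5 in KO. The lower Spo11 region stood at 47.0 and 52.3 in WT and 26.2 and 35.4 in KO, and the upper Dmc1 region at 20.5 and 41.8 in WT and 24.1 and 20.7 in KO. Lists of different lengths make such ranks unfit to show a change.

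Ranked over the 9742 regions found in all 4 lists, which is the same set in each library, the scores can be compared. The lower Spo11 region stood at percentile 28.1 and 33.4 in WT and 21.2 and 19.7 in KO, a mean difference of -10.3 points. The upper Spo11 region stood at 82.7 and 81.0 in WT and 74.9 and 74.5 in KO (difference -7.14), and the lower Dmc1 region at 98.5 and 98.3 in WT and 97.1 and 96.9 in KO (-1.40). In these 3 regions the KO percentiles were both under the WT ones, each with exact permutation p = 0.333. The same held at 18.7% of all regions, of any width. The 3 are also those whose widths did not overlap, and the score and the width come from the same reads. The Sycp1 region stood higher in KO, at 68.3 and 75.0 against 66.8 and 67.7 in WT (difference 4.41; exact permutation p = 0.333), as 29.7% of all regions did. That difference was 1.06 without KO 73 and 7.77 without KO 67. For Sycp3 (83.2 and 72.6 in WT, 78.2 and 74.5 in KO) and the upper Dmc1 region (4.92 and 21.2 in WT, 19.1 and 6.92 in KO) the genotypes overlapped, with exact permutation p = 1 for each. When the score was divided by the covered length, the difference was 4.87 at Sycp3, 0.95 at the upper Spo11 region, 4.37 at the lower and 11.5 at the upper Dmc1 region. The sign turned at each of these, though the upper Dmc1 region had been at only -0.09. The sign was kept at the lower Spo11 region (-11.8) and at Sycp1 (5.84), but the genotypes overlapped at both. By this measure the lower Spo11 region stood at percentile 40.68 and 64.93 in WT and 32.96 and 49.06 in KO. Sycp1 stood at 49.01 and 67.86 in WT and 51.5 and 77.05 in KO. The upper Dmc1 region alone had its genotypes apart, at 6.7 and 14.31 in WT and 26.95 and 16.98 in KO.

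**Figure D3:**
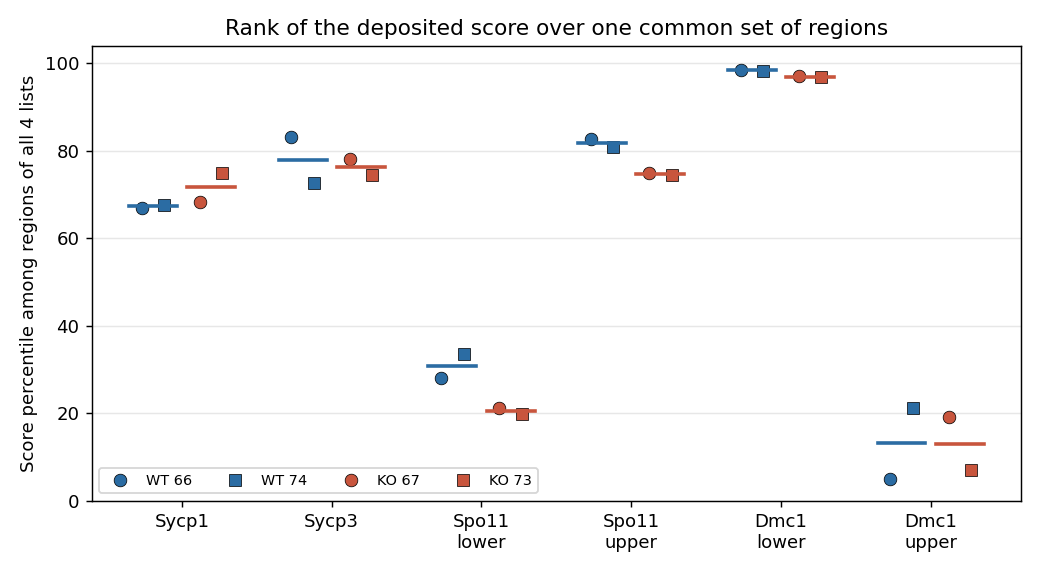
Percentile of the deposited score among the 9742 regions found in all 4 lists, for each region and library (points; WT blue, KO red; bars are means of 2 libraries). The lower Dmc1 region lies between 96.9 and 98.5 in every library, the lower Spo11 and upper Dmc1 regions lie between 4.92 and 33.4, and Sycp1 is the region with both KO points above both WT points.

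Covered length differs between the genotypes by an amount that goes with the WT width, so each region was set beside autosomal regions of both WT lists whose mean WT length was within 10% of its own. The lower Spo11 region had 1618 such regions, of which 24% were absent from at least 1 KO list. Among the 1230 found in all 4 lists the median log2 change was -0.10, and 13.8% had a lower log2 change than its -0.44. Their genotypes were apart in the same direction in 28.3%. The upper Dmc1 region, of like width, had 26.9% of 1535 absent from at least 1 KO list, and 16.8% of the 1122 found in all 4 had a lower log2 change than its -0.38 (median -0.08). Both KO lengths were under both WT lengths in 25.9% of them. So the 2 shortest regions were present in KO where 24% and 26.9% of regions of their width were not in both KO lists. They had a lower log2 change than most regions of their width found in all 4 lists. At the upper Dmc1 region, though, the genotypes overlapped, and the change was -0.05 without WT 74 and -0.71 without WT 66.

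Among 1422 regions of like width, 20.3% had a lower log2 change than the -0.48 of the upper Spo11 region (median -0.23), and 62.4% had both KO below both WT. For Sycp3, 34.7% of 991 regions had a lower log2 change than its -0.37 (median -0.26), and the genotypes were apart in that direction in 70.7%. Sycp1 was in the middle, with a lower log2 change in 51.2% of 1489 regions (median -0.22) and genotypes apart in 61%. The lower Dmc1 region lay near the middle for its width. Among 170 regions of like width the median was -0.65, 58.2% had a lower log2 change than its -0.58, and 93.5% had both KO below both WT. With regions absent from a KO list counted as the lowest changes, the shares below the named region were 56.0% for Sycp1, 42.1% for Sycp3, 34.5% and 27.9% for the lower and upper Spo11 regions, and 62.4% and 39.2% for the lower and upper Dmc1 regions. With regions matched on WT score rank as well as width, the shares among regions of all 4 lists were 5.99% and 7.04% for the lower and upper Spo11 regions and 25.7% for the upper Dmc1 region, and 52.1% for Sycp1, 31.9% for Sycp3 and 55.7% for the lower Dmc1 region.

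**Figure D4:**
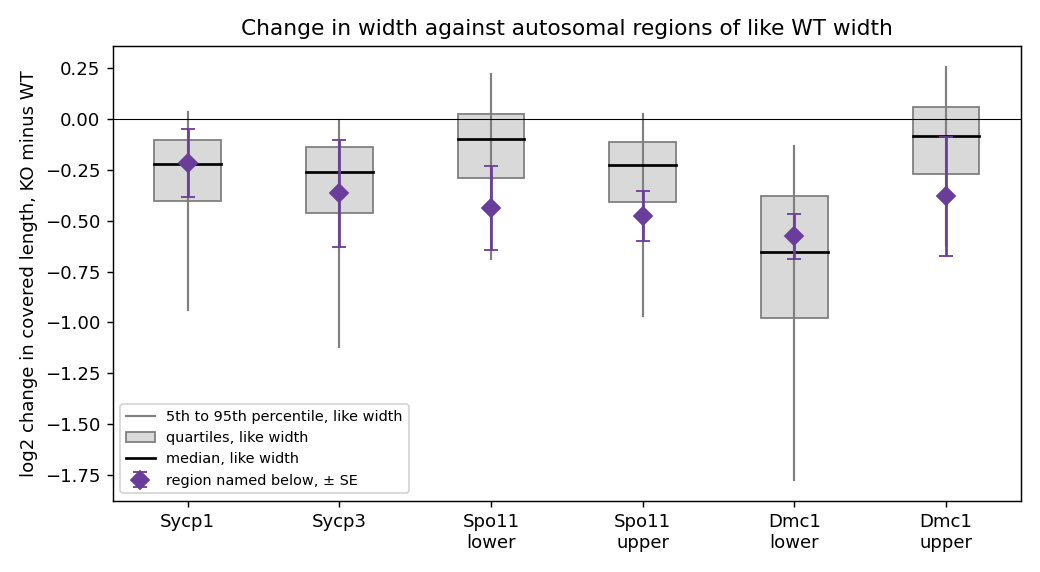
Change in covered length (log2, KO minus WT; diamonds with SE) of the 6 regions beside autosomal regions of like WT width found in all 4 lists (black line, median; box, quartiles; thin line, 5th to 95th percentile). All diamonds lie below 0, though that of Sycp1 is above 0 after either scaling of widths, and those of the lower and upper Spo11 and the upper Dmc1 region lie below the boxes.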

How the data were processed

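H3K4me3 ChIP-seq of 2 WT and 2 KO testis libraries was examined. Bowtie and HOMER are named, with mm9 as the build, per the submitters' processing notes; versions, settings and filters were not given in the sources used here. Per library, the authors deposited a list of regions with positions in bp and a score whose scale is not stated. The score was used only to rank regions. Starts were converted to count from 1. Regions that overlapped or touched were merged over the 4 lists, and the length covered by each library was taken. Log2 lengths of regions found in all lists were tested with limma 3.58.1 (R 4.3.3; variance trend; Benjamini-Hochberg threshold 0.05; tested on simulated data), without a pseudocount. Exact permutation tests were 2-sided, with a smallest p of 0.333. Every region in a window was named. The members, lists and motifs were chosen with earlier results of these data known. Alternatives concerned score threshold, list length, merging, scaling, variance trend, matching and left-out libraries.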

Additional observations from a re-analysis of the deposited data

How the results depend on the processing

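All 6 regions were found in all 4 lists as deposited, and 5 when regions under the 25th percentile of score were dropped or when lists were held to the shortest length, the upper Dmc1 region being the one that left. In both those settings 1 of the 5 regions left passed limma's test (the lower Dmc1 region), where 0 of 6 had passed, against 353 of 7550 regions (4.68%) and 404 of 8421 (4.8%). The median log2 change of the 6, -0.41, was -0.18 after subtraction of library medians and -0.16 after quantile normalization, and these moved the median of all shared regions from -0.18 to 0.05 and 0.07. It ran from -0.55 to -0.31 with 1 library left out and was -0.46 between WT 74 and KO 73, an alternative added after the data were seen. Single changes that turned were Sycp1 (0.016 after subtraction of medians and 0.045 after quantile normalization) and Sycp3 (0.024 without WT 66, -0.76 without WT 74), and the cause was not tested. The median difference in score percentile, -1.50, was 4.62 for score per covered length and ran from -4.81 to -0.53 with 1 library left out. Over all regions limma called 352, but 80 and 56 after the scalings, 98 without a variance trend, and 0 with regions of at least 2 lists (2285 at an unadjusted p under 0.05) or with a library left out (1100 to 1926), where the lone library is assumed to vary like those of the other genotype. No paired analysis was possible because the WT and KO libraries share no number. The read depth is unknown, so the precision it gives these lengths is unknown.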

Other observations

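The nearest listed regions outside the windows give their surroundings. Above the Dmc1 window, a region on chromosome 15 from 79487410 to 79490868 spanned 3297 bp (WT 66), 3188 bp (WT 74), 2196 bp (KO 67) and 2344 bp (KO 73) (log2 change -0.51, limma adjusted p = 0.0702). Its genotypes did not overlap, as in the lower Dmc1 region. Above the Spo11 window, a region on chromosome 2 from 172847100 to 172848278 had a larger KO mean: WT 66 covered 939 bp, WT 74 753 bp, KO 67 922 bp and KO 73 1179 bp (log2 change 0.31, limma adjusted p = 0.514). The region above the Sycp3 window, on chromosome 10 from 87965605 to 87966785, spanned 1049 bp (WT 66), 1074 bp (WT 74), 899 bp (KO 67) and 774 bp (KO 73) (log2 change -0.35, limma adjusted p = 0.387), and its genotypes did not overlap. They overlapped at the region below that window (log2 change 0.01, limma adjusted p = 0.986) and at the region above the Sycp1 window (-0.11, limma adjusted p = 0.826). Below the Sycp1, Spo11 and Dmc1 windows, the nearest region was in each case listed in KO 73 alone, with 501, 1250 and 636 bp. In the whole series 634 merged regions were found in KO 73 alone, 36 in KO 67 alone, 989 in WT 66 alone and 1412 in WT 74 alone.

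Promoter letters were also counted for 35 other genes of meiotic prophase, among them Sycp2, Rec8, Stag3, Hormad1 and Msh4, of which 30 had an entry in RefSeq's GRCm38.p6 table. GCGGGAA was found in 10 of the 30 promoters (33.3%) against 4.6% of all promoters, and TCCCGC in 17 (56.7%) against 19.98%. The shares were 93.3% against 80.3% for AACNG, 46.7% against 32.8% for AACNGNC, 16.7% against 7.94% for CNCCTCAG, 43.3% against 37.4% for CCAAT and 3.33% against 7.51% for TGACGT. The listed promoters were not matched to the others on CpG or GC content, so the shares may differ for that reason, which was not tested. These counts describe letters alone, and H3K4me3 at these genes was not measured here.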
